A study of Homo sapiens with 4 samples.

Results

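The 150 long intergenic non-coding RNA genes (LINC genes) with the brightest probe sets were examined in LS411N-5FU-R, a 5-fluorouracil-resistant line derived from the human colon carcinoma line LS411N. They were taken from 458 LINC genes, those whose annotation symbol is LINC followed by a digit, among 14884 genes with a named probe set. Both groups are the same resistant line, grown in RPMI medium with serum. A pair of arrays came from cells given 50 nM verticillin A for 3 days, and a pair from control cells without it (0 nM, also 3 days). Verticillin A is a fungal epipolythiodioxopiperazine studied as an inhibitor of histone H3 lysine 9 methyltransferases. The labels do not say whether the resistant line is 1 clone, or whether paired arrays stem from independent cultures. The p-values therefore measure only the spread between these arrays, which may be technical. LS411N cells without resistance were not analysed here.

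LINC symbols are serial numbers given to long non-coding RNA genes that lie between protein-coding genes, and most of them have no assigned function. Such transcripts are made by RNA polymerase II and are often spliced and polyadenylated. Individual ones have been described as regulators of a neighbouring gene, as scaffolds for proteins, as sponges for microRNAs or as sources of small peptides. Trimethylated lysine 9 of histone H3 marks repressed chromatin, which covers many non-coding regions.

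The members were chosen by their mean value over all 4 arrays, so levels are given as a description. The values are log2 expression values of probe sets. A probe set's level depends on its probes as well as on the RNA, so levels of different genes do not rank the amounts of their RNAs. Mean levels of the 150 members ran from 4.22 to 12.39, with a median of 5.08 and quartiles of 4.49 and 6.73. At the edge of the selection, LINC00298 and LINC02774, the last inside, had mean levels of 4.23 and 4.22, and LINC00446 and LINC02582, the first outside, both had 4.22. Only 51 members lay above the median of all genes, 5.84, and 99 lay at or below it. Thus the members are bright among LINC genes, not among genes in general.

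No detection calls were used here, and genes of other lineages served as a guide to dim values. The measured leukocyte and endothelial markers, 4 of 9 and 3 of 5 listed, had mean levels of 3.57 to 4.6, and the 3 measured fibroblast markers of 8 listed had 3.45 to 4.55. Of the members 101 lay above all 7 leukocyte and endothelial markers. Of 15 epithelial markers 11 were measured. EPCAM and KRT18, of epithelial cells in general, had mean levels of 11.03 and 10.40, and CDX2, an intestinal transcription factor, had 5.28. The colon markers KRT20, CDX1, TSPAN8 and CEACAM5 were at 4.64, 4.09, 3.68 and 3.61. Of the 11, KRT19 rose with verticillin A (log2 change 0.437, limma adjusted p = 0.0493) and VIL1 fell (-0.619, 0.0167). Their part in the LINC results was not tested. Over all probe sets the arrays correlated at r = 0.995 between the verticillin A arrays, at 0.994 between the control arrays and at 0.990 to 0.992 between groups. The median gap between the arrays of a group was 0.10 with verticillin A and 0.125 in control for the members, and 0.078 and 0.097 for all genes, on the log2 scale.

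**Figure D1:**
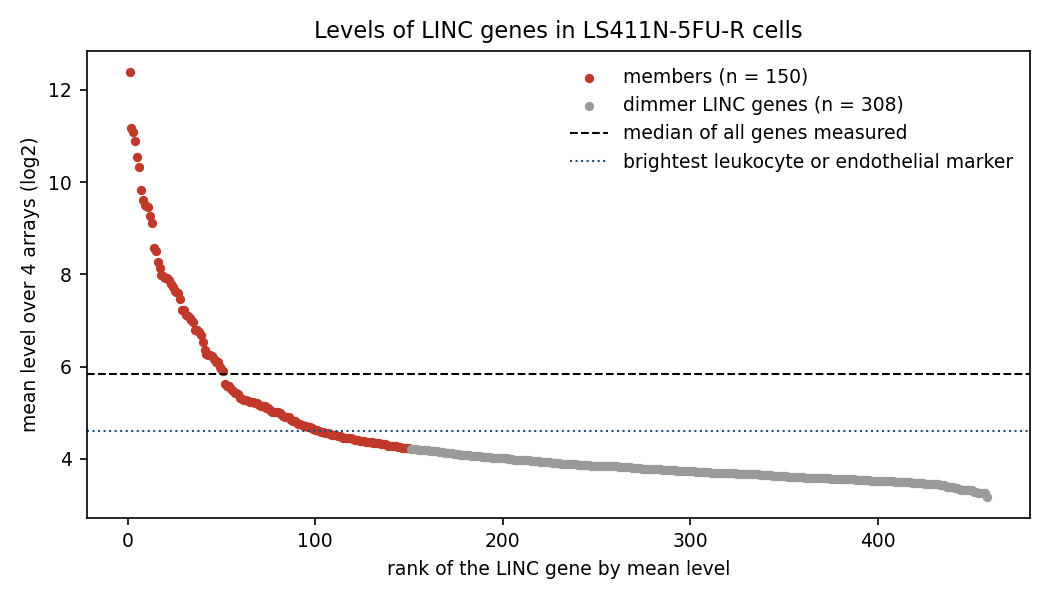
Mean level (log2, over all 4 arrays) of each LINC gene against its rank, with the 150 members in red and the 308 dimmer LINC genes in grey. The members start at 12.39 and flatten to 4.22 at rank 150, crossing the median of all genes (dashed line, 5.84) after 51 genes.

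With verticillin A, 5 of the 150 LINC genes rose and 8 fell, and 137 did not pass the test. The test was limma on the log2 values, with Benjamini-Hochberg adjustment over all 14884 genes and a threshold of 0.05. The called share of the members was 8.67%, against 8.65% of all genes. By direction, 3.33% of the members rose, against 3.55% of all genes, and 5.33% fell, against 5.10% of all genes. These shares lie at the background, so the count says nothing particular about LINC genes. The members' median log2 change was -0.029, against -0.006 over all genes. It became 0.009 when each array was centred on its median. Such centring shifts the change of every gene by the same amount, so the difference between members and all genes stays. The members' changes ran from -0.438 at the 5th percentile to 0.28 at the 95th. In these bulk samples, fewer cells of a type and less RNA per cell cannot be told apart. Both verticillin A arrays lay above both control arrays in 23 members (15.3%, against 25.7% of all genes) and below them in 48 (32.0%, against 29.1%). An unadjusted p under 0.05 was reached by 38 members, against 26.7% of all genes.

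The number of calls changed when an array was left out, which leaves 1 group with a lone array that is assumed to vary like the other group. With control replicate 1 left out limma called 0 members, with 38 at an unadjusted p under 0.05, and with control replicate 2 left out 0, with 35. In these fits it also called 0 of all 14884 genes, with smallest adjusted p of 0.0525 and 0.0502, so the lost calls do not set the members apart from other genes. Without either verticillin A replicate the calls also became fewer, among the members and among all genes. LINC00640 and LINC03033 kept theirs in these fits, which does not set the members apart from other genes. The sizes of the changes moved less, from 1.162 to 1.523 in LINC00640 and from 0.791 to 0.818 in LINC03033 on the log2 scale over the 4 fits. When all 53617 probe sets of the table were tested together limma called 0 members, with 28 at an unadjusted p under 0.05, and the adjusted p of the 13 ran from 0.0572 to 0.146. All 13 kept their direction under every alternative in which they were tested, but few alternatives could have turned it. Those of prior, probe set, features tested, filter and replicate block leave the log2 changes of the 13 as they were. Leaving out 1 array cannot turn a sign where the groups do not overlap. Only quantile normalization and median centring could have done so.

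**Figure D2:**
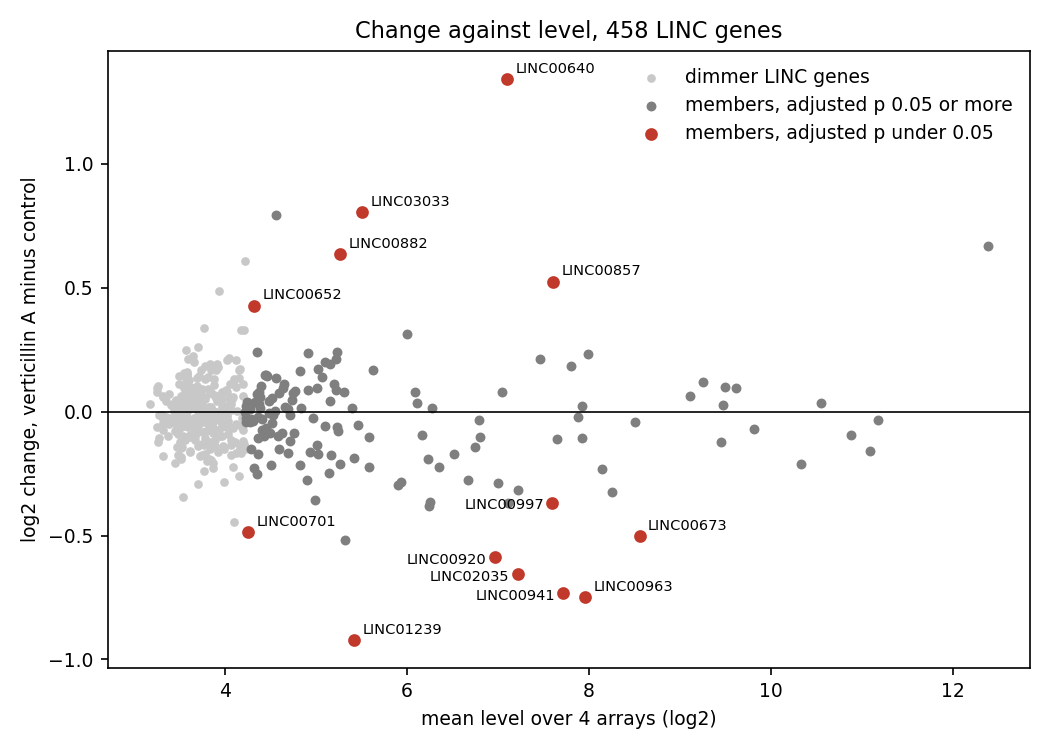
Log2 change (verticillin A minus control) against mean level over the 4 arrays for 458 LINC genes. Red points are the 13 called members, from LINC00640 at 1.34 to LINC01239 at -0.92, and most other points lie within 0.5 of zero.

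The largest change of any member was the rise of LINC00640, a gene of chromosome 14 without a function known well enough to be given here. Its level was 7.79 and 7.76 on the verticillin A arrays, against 6.25 and 6.61 on the control arrays. The lower verticillin A array stood more than 1 log2 unit above the higher control array, while the control arrays themselves lay 0.36 apart. The rise was 2.54-fold (log2 change 1.34 ± 0.13, SE; limma adjusted p = 0.0107), and LINC00640 was the only member with a change of at least 1.

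LINC03033, which lies near HIF1A on the same chromosome, had levels of 5.90 and 5.91 with verticillin A, against 5.12 and 5.09 in control. Its arrays agreed closely within each group, and the rise of 0.80 ± 0.07 (log2 change ± SE), or 1.75-fold, had the smallest adjusted p of any member (limma, 0.00855). LINC00882, on chromosome 3, showed the same tight pattern. Its levels were 5.58 and 5.59 with verticillin A, against 4.96 and 4.94 in control, a 1.55-fold rise (limma adjusted p = 0.0117).

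LINC00857, on chromosome 10, has been studied as a growth-promoting RNA in lung and other carcinomas. It had levels of 7.80 and 7.94 with verticillin A, against 7.31 and 7.38 in control, with no overlap (1.44-fold, limma adjusted p = 0.0241). The last of the 5 rises was that of LINC00652, on chromosome 20, with levels of 4.44 and 4.62 with verticillin A, against 4.11 and 4.10 in control (1.35-fold, limma adjusted p = 0.0423). All 4 of its values lie at or near the levels of leukocyte markers, so this change is that of a dim probe set.

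Among the 8 members that fell, the deepest change was that of LINC01239, which lies beside DMRTA1 on chromosome 9. Its levels were 5.07 and 4.84 with verticillin A, against 6.02 and 5.74 in control, so the groups were well apart although each was spread. It was 1.89-fold lower with verticillin A (log2 change -0.92 ± 0.13, SE; limma adjusted p = 0.0208).

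LINC00963, on the same chromosome, was first described in prostate cancer, in the move to androgen-independent growth. Its levels were 7.60 and 7.58 with verticillin A, against 8.36 and 8.31 in control. Both pairs agreed within 0.1, and LINC00963 was 1.68-fold lower (log2 change -0.75 ± 0.07, SE; limma adjusted p = 0.0093). LINC00941, on chromosome 12, has been reported to promote invasion and metastasis of colorectal cancer cells through SMAD4 and transforming growth factor beta signalling. Its levels were 7.26 and 7.44 with verticillin A, against 8.15 and 8.02 in control (1.66-fold lower, adjusted p = 0.0176).

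LINC02035, on chromosome 3, had levels of 6.89 and 6.90 with verticillin A, against 7.53 and 7.57 in control, and was 1.58-fold lower (limma adjusted p = 0.0115). LINC00920, on chromosome 16, had 6.69 and 6.65 with verticillin A, against 7.18 and 7.34 in control (1.5-fold lower, limma adjusted p = 0.0208). In neither gene did the groups overlap. LINC00673, a chromosome 17 transcript studied in pancreatic cancer and, under the name SLNCR, in melanoma invasion, had levels of 8.24 and 8.37 with verticillin A, against 8.78 and 8.85 in control. It was 1.42-fold lower (limma adjusted p = 0.0266).

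The 2 smallest falls were those of LINC00701 and LINC00997. LINC00701, on chromosome 10, had 4.07 and 3.95 with verticillin A, against 4.41 and 4.58 in control (1.40-fold lower, limma adjusted p = 0.0374), levels at which lineage markers foreign to the cells also lie. LINC00997, on chromosome 7, had 7.43 and 7.40 with verticillin A, against 7.74 and 7.82 in control (1.29-fold lower, limma adjusted p = 0.0387). Each of the 13 called members is read by 1 probe set only, so no second probe set was there to compare.

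**Figure D3:**
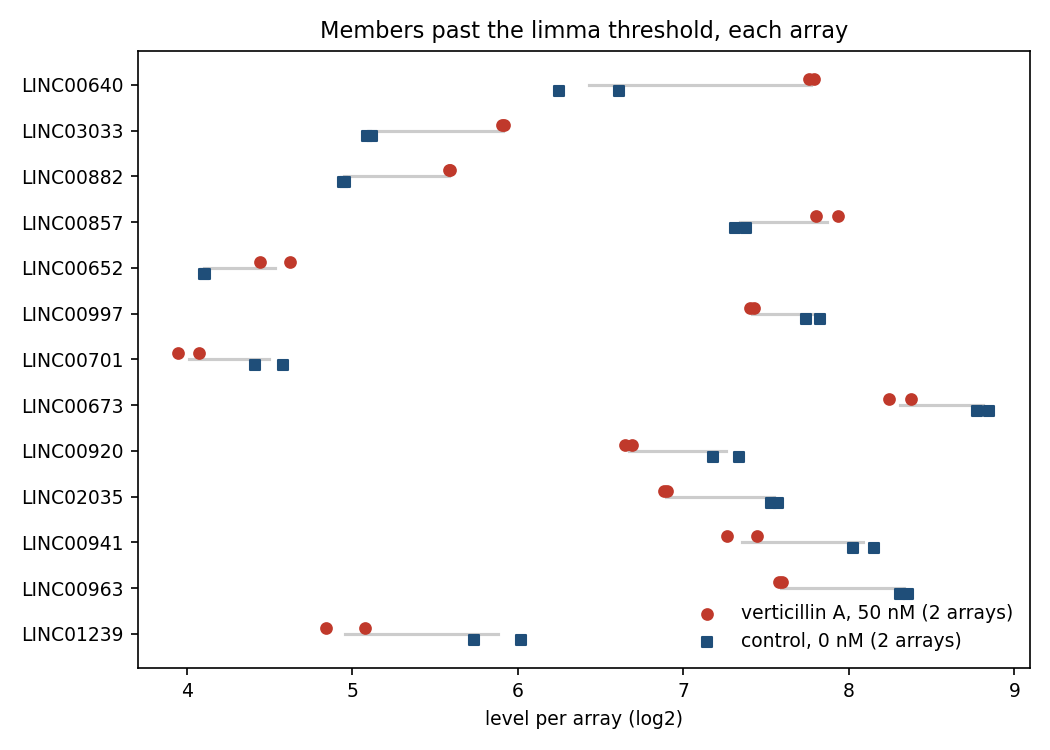
Level (log2) on each array of the 13 called members, with the 2 verticillin A arrays as red circles above the 2 control arrays as blue squares, and grey lines joining the group means. In each of the 13 genes the groups do not overlap, and the gap is widest in LINC00640. Groups without overlap are common, with 25.7% of all genes higher and 29.1% lower on both verticillin A arrays.

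Start regions are shown of the members that moved furthest in each direction and had a promoter entry, for comparison of their sequence. LINC01239, the deepest fall, had no entry and is not shown. RefSeq promoter windows (build GRCh38.p14, 250 bases before to 50 after the annotated start) were held for 110 of the 150 members and for 12 of the 13 called ones. The windows of the 3 largest rises and of the 3 largest falls with an entry are printed 5′ to 3′ on the gene's strand. Capitals mark matches, on either strand, to 9 motifs, namely CCAAT for the CCAAT box, TATAAA for the TATA box, TGANTCA for AP-1, TGATGNAA for ATF4, TGACNNNGC for NRF2, TGACGTCA for CREB and ATF factors, CACGTG for the E-box, GGGCGG for SP1 and KLF factors and CCGGAAG for ETS factors. Each motif was searched on both strands, and matches may overlap.
LINC00640 (chr14:51333143-51333442, plus strand): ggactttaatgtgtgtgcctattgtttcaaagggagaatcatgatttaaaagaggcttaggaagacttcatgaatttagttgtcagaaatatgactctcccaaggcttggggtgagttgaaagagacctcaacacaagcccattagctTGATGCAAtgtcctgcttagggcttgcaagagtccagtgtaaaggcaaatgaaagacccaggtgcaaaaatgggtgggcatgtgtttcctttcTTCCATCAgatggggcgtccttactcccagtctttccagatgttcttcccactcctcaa
LINC03033 (chr14:61570290-61570589, plus strand): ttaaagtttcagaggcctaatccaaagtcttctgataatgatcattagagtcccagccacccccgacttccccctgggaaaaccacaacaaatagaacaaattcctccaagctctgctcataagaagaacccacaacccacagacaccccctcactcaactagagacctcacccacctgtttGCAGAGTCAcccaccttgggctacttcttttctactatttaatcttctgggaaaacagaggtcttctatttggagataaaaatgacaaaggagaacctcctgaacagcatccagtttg
LINC00882 (chr3:107240589-107240888, minus strand): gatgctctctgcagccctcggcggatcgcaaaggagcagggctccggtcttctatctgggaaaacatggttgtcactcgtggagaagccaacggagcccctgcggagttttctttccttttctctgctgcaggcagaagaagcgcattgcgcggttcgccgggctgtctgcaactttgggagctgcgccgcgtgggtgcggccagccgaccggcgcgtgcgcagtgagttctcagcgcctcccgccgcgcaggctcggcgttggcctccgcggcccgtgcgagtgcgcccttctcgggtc
LINC00963 (chr9:129488410-129488709, plus strand): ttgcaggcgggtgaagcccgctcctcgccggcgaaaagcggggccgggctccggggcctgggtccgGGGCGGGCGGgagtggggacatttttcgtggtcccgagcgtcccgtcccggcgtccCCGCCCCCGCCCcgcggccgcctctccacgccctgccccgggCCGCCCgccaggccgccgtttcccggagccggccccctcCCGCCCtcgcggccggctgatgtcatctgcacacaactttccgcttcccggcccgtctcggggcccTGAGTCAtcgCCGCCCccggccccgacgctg
LINC00941 (chr12:30795431-30795730, plus strand): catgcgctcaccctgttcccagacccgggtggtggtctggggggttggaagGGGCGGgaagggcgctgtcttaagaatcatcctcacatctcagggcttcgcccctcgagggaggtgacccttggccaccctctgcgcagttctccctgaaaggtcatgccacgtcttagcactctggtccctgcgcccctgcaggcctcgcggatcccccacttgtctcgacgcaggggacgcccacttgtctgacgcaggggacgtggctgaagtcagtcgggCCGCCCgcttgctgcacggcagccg
LINC02035 (chr3:122886263-122886562, plus strand): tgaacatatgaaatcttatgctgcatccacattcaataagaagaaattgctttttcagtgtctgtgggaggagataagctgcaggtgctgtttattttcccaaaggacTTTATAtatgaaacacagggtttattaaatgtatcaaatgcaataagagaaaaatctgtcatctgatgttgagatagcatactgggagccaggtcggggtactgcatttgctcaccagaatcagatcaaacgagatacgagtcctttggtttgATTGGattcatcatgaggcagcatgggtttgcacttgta

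The windows of LINC00640 and LINC03033 are poor in CpG, with 1 CpG each and a GC content of 44.7% and 45.0%. LINC00963 stands at the other end with 43 CpGs and 78.0% GC, and its capitals are 7 matches to GGGCGG and 1 to TGANTCA. LINC00640 holds 2 matches to TGATGNAA, 1 on each strand, a motif found in 3.62% of all 35116 windows. LINC03033 holds 1 match to TGACNNNGC, found in 13.3% of all windows. In LINC00941 the 2 matches are to GGGCGG (45.0% of windows), in LINC02035 they are 1 each to TATAAA (11.5%) and CCAAT (34.6%), and LINC00882 has 0 matches to the 9 motifs despite 33 CpGs. No motif was common to all 3 rising or to all 3 falling members shown. Such matches are letters in a window and were not tested as binding sites.

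Over the 110 members with a window, the median was 8 CpGs and 53.7% GC, against 4 CpGs and 48.0% GC in 216 dimmer LINC genes and 23 CpGs and 63.7% GC in 9707 measured protein-coding genes. GGGCGG was present in 35.5% of the members' windows, against 19% of those of the dimmer LINC genes and 45.0% of all windows. CCAAT was present in 42.7% of the members' windows, against 29.2% and 34.6%. These are counts over genes, given without a test.

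Of the 10 brightest members 0 passed the test in limma, against 8.65% of all genes and 14.7% of those at or above the level of rank 50. An unadjusted p under 0.05 in limma was reached by 2 of the 10 (LINC00987 and LINC01061), against 26.7% of all genes. Counts over 10 genes are too small to set the brightest members apart. LINC00987, a chromosome 12 gene, had levels of 12.69 and 12.76 with verticillin A, against 12.35 and 11.76 in control. Both treated arrays were higher, but the control arrays lay 0.595 apart, and the log2 change of 0.67 ± 0.19 (SE) had a limma adjusted p of 0.0976. It passed with an intensity trend in the prior (adjusted p = 0.0204) and when the dimmest 50% of genes were left out (0.0387). Its log2 change was 0.37 without control replicate 2 (limma adjusted p = 0.118) and 0.336 with the mean of its probe sets (0.133).

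LINC01347 had levels of 11.17 and 11.16 with verticillin A, against 11.17 and 11.22 in control, a log2 change of -0.03 whose sign turned under median centring (0.004). LINC00999 had 11.00 and 11.03 with verticillin A, against 11.14 and 11.21 in control (log2 change -0.16, limma adjusted p = 0.218). LINC01061 had 10.24 and 10.22, against 10.37 and 10.51 (log2 change -0.21, limma adjusted p = 0.159). Both lay below control on each array without passing, and both passed with an intensity trend in the prior (adjusted p = 0.0318 and 0.0307). With the mean of its 4 probe sets, whose changes ran from -0.177 to 0.311, LINC00999 had a log2 change of -0.002 (limma adjusted p = 0.993). The other 6 of the 10 brightest, LINC01000, LINC01123, LINC01106, LINC00641, LINC00630 and LINC03009, had log2 changes between -0.10 and 0.10 on their brightest probe sets. LINC01000 had -0.308 with the mean of its 3 probe sets (limma adjusted p = 0.065), whose changes ran from -0.69 to -0.096. LINC00641 had 0.151 with the mean of its 2 probe sets (limma adjusted p = 0.452).

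Several of these probe sets may not be specific to 1 gene. LINC01123 and LINC01106, both on chromosome 2, share 96.0% of the 25-base words of their start windows, and LINC01061 and LINC01002 share 83.0% and 90.9% with other annotated genes elsewhere in the genome. Such copies could share transcripts' sequence and therefore probes, so values of these members are uncertain. Of the members, 18 shared at least 20% of these words with another gene, 12 because the windows overlap in place and 6 with a window elsewhere.

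Which probe set stands for a gene set many of the levels. Of the members 37 have several probe sets, and in 10 of them the mean levels of those probe sets span more than 3 log2 units. The 37 include LINC00102 and LINC00685, whose probe sets have identical values on every array and so give no second reading. The second probe set of LINC00987 had levels of 4.90 and 4.82 with verticillin A, against 4.86 and 4.85 in control, 7.53 log2 units below the brightest and with a change of 0.004. LINC00933, named after its values were seen, differed likewise, with mean levels of 9.11 and 3.43 on its 2 probe sets. By contrast, 5 of the 7 probe sets of LINC01061 had mean levels of 10.12 to 10.33 and changes of -0.19 to -0.27. In 12 of the 37 members the probe sets changed with both signs. When probe sets were averaged, 141 of the 150 stayed among the 150 brightest. The values of the 13 called members, with 1 probe set each, are not touched by this choice.

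**Figure D4:**
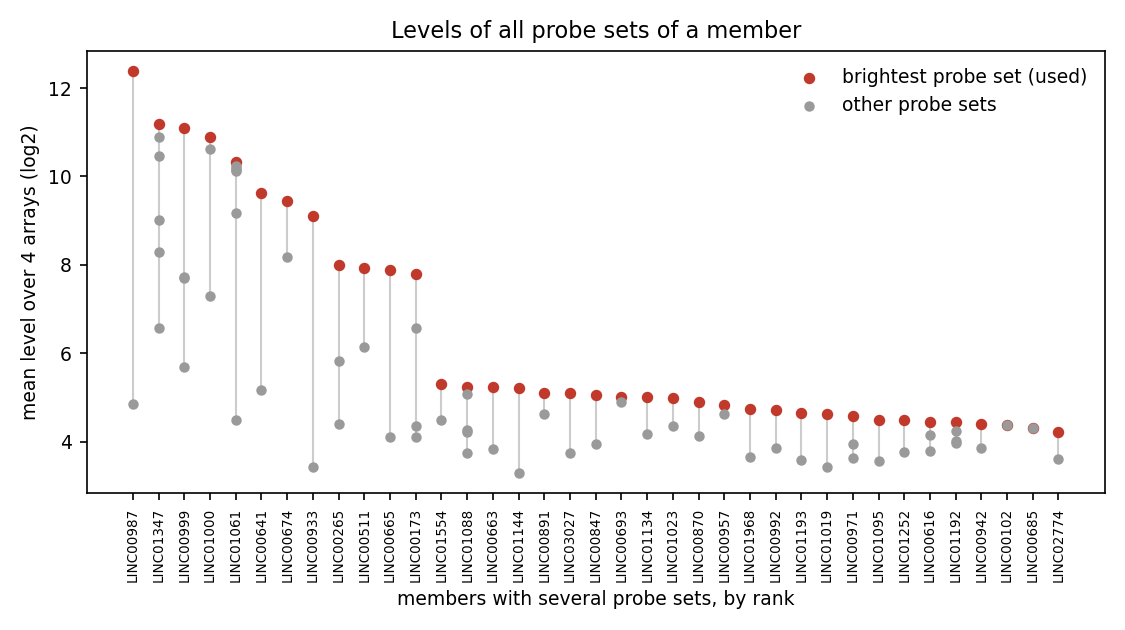
Mean level over 4 arrays (log2) of each probe set of the 37 members with several, in order of rank, with the brightest probe set, which was used, in red and the others in grey. LINC00987 and LINC00933 show gaps of 7.53 and 5.68 between their probe sets, and LINC01061 has 5 near each other.

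Calls were more frequent among the brighter members, as among genes in general. Of the members at ranks 1 to 50, 2 rose (4.0%) and 6 fell (12%). Of all 7295 genes at or above the level of rank 50, 6.0% rose and 8.66% fell. At ranks 51 to 100, 2 rose and 1 fell, against 3.13% and 4.62% of genes in that range. At ranks 101 to 150, 1 rose and 1 fell, against 1.42% and 1.52%. When the brighter 50% of genes were fitted alone, 51 members remained, of which 3 rose (5.88%, against 14.4% of those genes) and 13 fell (25.5%, against 17.9%). Their median log2 change was -0.10. All 8 calls among them were kept, and 8 were added, LINC00987 as higher and LINC01963, LINC00294, LINC00839, LINC00623, LINC01012, LINC01098 and LINC00622 as lower, with limma adjusted p of 0.0144 to 0.0438. These 8 are named after their values were seen. Whether the balance of rises and falls differs from that of other genes was not tested.

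The members of a list of 38 LINC symbols with published roles were read whatever their values. The list is not complete. It lacks LINC00857, LINC00963 and LINC00941, called members whose published roles are given above. The annotation held 16 of the 38, and 7 were members. LINC00673 fell, as described above, and the other 6 did not pass the test. The called share was 14.3%, 1 gene of 7, against 8.65% of all genes. An unadjusted p under 0.05 in limma was reached by 4 of the 7, against 26.7% of all genes. Counts over 7 genes are too small to set the list apart. The median log2 change of the 7 was -0.108, against -0.006 over all genes. LINC00707, studied in carcinomas, had levels of 4.68 and 5.24 with verticillin A, against 4.37 and 3.96 in control. The groups did not overlap, but the arrays of each group lay further apart than the nearest arrays of the 2 groups, and the log2 change of 0.79 ± 0.22 (SE) had a limma adjusted p of 0.0882.

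LINC00460, also studied in carcinomas, had levels of 6.04 and 6.27 with verticillin A, against 5.97 and 5.71 in control (log2 change 0.31 ± 0.12, SE; limma adjusted p = 0.183). LINC00659, studied in colon cancer, had 5.14 and 5.18 with verticillin A, against 5.40 and 5.35 in control (log2 change -0.21, limma adjusted p = 0.122). LINC00467, which has been reported to encode a micropeptide in colorectal cancer cells, had 7.57 and 7.62 with verticillin A, against 7.62 and 7.79 in control. Its groups overlapped, as did those of LINC00511 and LINC00320, with log2 changes of -0.11, -0.11 and -0.10.

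Some LINC RNAs act on genes beside them, and the nearest gene with a probe set on each side of the 13 called members was read. Of these 26 neighbours, 5 passed the test (19.2%), and all 5 fell. The share was 10.9% (30 of 274) in neighbours of the other members and 8.65% in all genes. These shares were not matched for level. Mean levels of the 26 ran from 3.52 to 11.637, and those of the 5 from 8.996 to 10.724. Of all genes at or above the level of the member at rank 50, 14.7% passed. The change had the sign of the LINC gene's in 16 of the 26, whatever its size, with NTMT1 at -0.001 among them. This count was not compared with that of other genes. Only 6 of the 26 are directly adjacent in the RefSeq gene order, and up to 27 genes without a probe set lie between the others. Members and neighbours share the arrays, so these values stand side by side as a description.

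Of the 5, 3 lie beside a LINC gene that also fell. SLC49A4, a lysosomal transporter directly adjacent to LINC02035, had levels of 10.50 and 10.46 with verticillin A, against 10.95 and 10.98 in control (log2 change -0.48, limma adjusted p = 0.0206). CAPRIN2, an RNA-binding protein gene with 1 gene between it and LINC00941, had 9.46 and 9.54 with verticillin A, against 9.91 and 10.01 in control (log2 change -0.46, limma adjusted p = 0.0296). SOX9, a transcription factor of crypt base cells with 2 genes between it and LINC00673, had 9.55 and 9.51 with verticillin A, against 9.82 and 9.91 in control. Its fall of 0.34 on the log2 scale lay at the threshold (limma adjusted p = 0.0491) and missed it with a robust prior (0.0511) or median centring (0.0516).

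The other 2 fell while their LINC gene rose. Closeness was counted here in genes without a probe set, and distances in bases were not measured for any neighbour. ALCAM, the adhesion molecule CD166, lies 27 unmeasured genes from LINC00882 and had a log2 change of -0.47 (limma adjusted p = 0.0227). DTD1, a D-aminoacyl-tRNA deacylase, lies 6 genes from LINC00652 and had a log2 change of -0.42 (limma adjusted p = 0.0473). HIF1A-AS2, an antisense RNA of HIF1A with 3 genes between it and LINC03033, had 6.13 and 5.94 with verticillin A, against 5.65 and 5.43 in control, and just missed the threshold (log2 change 0.50, limma adjusted p = 0.0535). TMX1 beside LINC00640, ANXA11 beside LINC00857, KBTBD2 beside LINC00997 and DMRTA1 beside LINC01239 did not pass, with log2 changes of -0.18, 0.21, -0.35 and -0.26.

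**Figure D5:**
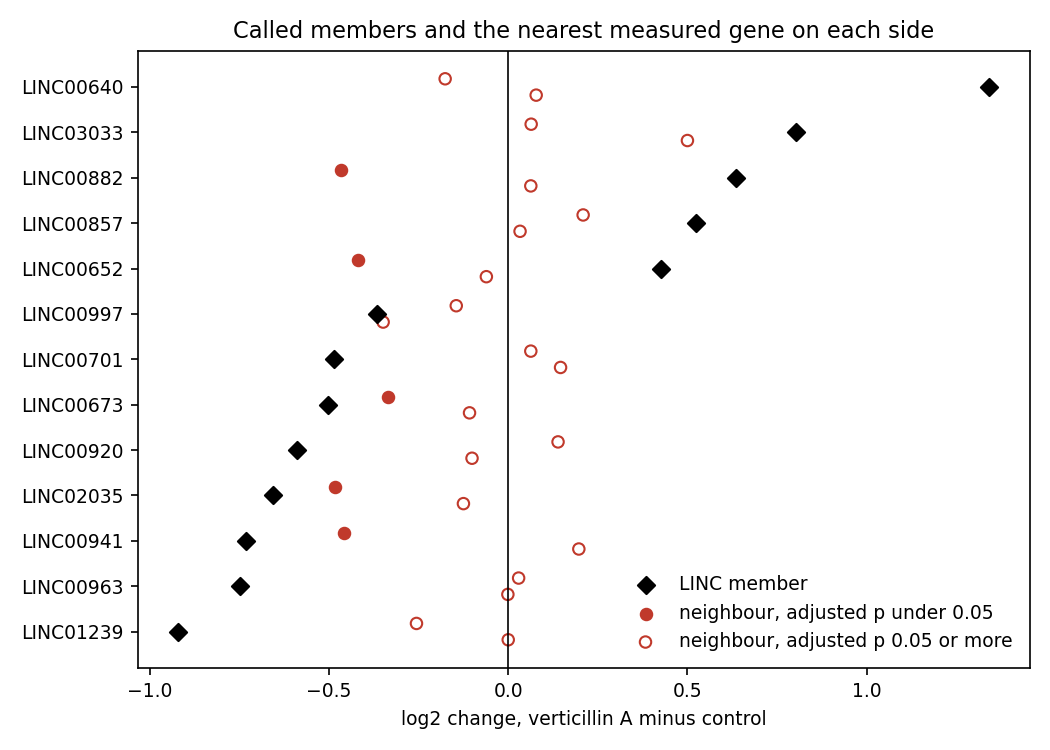
Log2 change (verticillin A minus control) of the 13 called LINC genes and of the nearest measured gene on each side. SLC49A4, CAPRIN2 and SOX9 lie on the same side of zero as their LINC gene, and ALCAM and DTD1 on the opposite side.

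Among the 308 dimmer LINC genes 4 passed the test (1.30%), against 0.678% of all 4428 genes in the same level range. LINC02582, just outside the selection, had levels of 4.43 and 4.62 with verticillin A, against 3.84 and 3.99 in control (log2 change 0.61 ± 0.10, SE; limma adjusted p = 0.0271). LINC00628 also rose by 0.33, and LINC00571 and LINC01342 fell by 0.45 and 0.35 on the log2 scale. All 4 have mean levels in the range of the foreign lineage markers.

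Of 73 long non-coding RNAs with other names, 45 were measured, of which 2 rose, 5 fell and 38 did not pass. The called share was 15.6%, against 8.65% of all genes, at median levels of 6.93 and 5.84. This list was drawn up with results of these data known, which touches GAS6-DT most. GAS6-DT, the divergent transcript of GAS6, had levels of 7.18 and 7.41 with verticillin A, against 5.06 and 5.09 in control, a larger change than that of any LINC member (log2 change 2.22 ± 0.10, SE; limma adjusted p = 0.00242). MIR4435-2HG, a microRNA host gene, rose by 0.53. MIR31HG, the host of microRNA 31, fell by 0.79, and CRNDE, which is raised in colorectal tumours, fell by 0.63. The snoRNA host genes SNHG15, ZFAS1 and SNHG17 fell by 0.57, 0.39 and 0.37. Of all 940 measured long non-coding RNA genes not named LINC, 5.21% passed, and 9.51% of the 11916 protein-coding genes did. Their median levels were 4.27 and 6.55, and calls were more frequent among brighter genes. These shares were not matched for level.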

How the data were processed

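RNA of 4 samples (250 ng each) was hybridised to Affymetrix whole-transcript arrays, per the labels' protocols. The authors deposited 1 log2 value per probe set and array, and GCRMA was used per the submitters' processing notes. The sources used here do not give its version, annotation, build or filters. The array medians, 4.59 to 4.62, are nearly equal, so a change of total RNA would not show.

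The platform annotation names 1 gene for 16098 of 53617 probe sets, and 37519 have no name in it. Gene IDs matched all 16098 to RefSeq (GRCh38.p14), and the probe set with the highest mean stood for each of 14884 genes. limma 3.58.1 in R 4.3.3 (lmFit, eBayes, no filter) was fitted on all genes, with Benjamini-Hochberg adjustment, and was tested on simulated data. The fit had 2 residual and 3.43 prior degrees of freedom, and 2 arrays per group limit the precision.

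The members, lists and naming rules were chosen with earlier results of these data known. Named were called members, the 10 brightest, those at the edge of the selection, members of a list with known roles, neighbours of called members, and called genes among dimmer LINC genes and other long non-coding RNAs. Olfactory receptors, planned as a guide to dim values, had 1 named gene and were not used. Alternatives changed the prior, scaling, centring, filter, probe set, features tested, number of members, replicate block and arrays used.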

Additional observations from a re-analysis of the deposited data

How the results depend on the processing

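The count of 13 called LINC members stayed within 1.5 times under a robust prior, quantile normalization, median centring, the mean of probe sets (which leaves the 13, with 1 probe set each, at their values), a filter on the dimmest 50% of genes (16), and with the 100 or 200 brightest LINC genes (11 and 16). It was 20 with an intensity trend in the prior and 0 when all probe sets were tested, with 28 at an unadjusted p under 0.05 in limma, and 0 to 2 when 1 array was left out. The count of 1287 over all genes was 2428 with the trend, 2399 without the dimmest 50%, 18 with all probe sets, and 0 to 153 with 1 array left out. Median centring gave 750 higher and 668 lower genes and quantile normalization 678 and 731, against 528 and 759. The 4 calls among dimmer LINC genes were 0 with all probe sets and 0 to 0 with 1 array left out, and no dimmer LINC gene was left to test without the dimmest 50%. The 7 calls among other long non-coding RNAs were 14 with the trend, 12 without the dimmest 50%, 1 with all probe sets, and 0 to 1 with 1 array left out. The causes were not tested, beyond the fewer genes or arrays that a setting uses.

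The replicate numbers are shared by the groups, but same-numbered arrays did not deviate together (r = 0.012 across genes, which are not independent). The labels do not say whether they share more than a number. This correlation, from a single difference per group, cannot settle it. With the replicate block the calls were 10 of the members, 592 of all genes, 1 of the dimmer LINC genes and 4 of the other long non-coding RNAs.

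The members' median log2 change of -0.029 was 0.009 under median centring, which shifts the change of every gene by the same amount. It was -0.102 for the 51 members left without the dimmest 50%, and -0.045 to -0.024 with 1 array left out. Signs turned only in named genes that did not pass. LINC01347 was at 0.004 with centring and 0.022 with the mean of probe sets, LINC01123 ran from -0.045 to 0.112, LINC00320 from -0.23 to 0.035 and LINC03009 from -0.105 to 0.158 with 1 array left out, the turned signs being without control replicate 1 and, in LINC03009, also without verticillin A replicate 1 (-0.003). Of 586 values of named genes under alternatives, 415 kept direction and side of the threshold, 155 lost a call, 10 gained one and 6 turned sign. Without detection calls, dim probe sets cannot be separated from background.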
